A study of Mus musculus with 6 samples.

Results

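The Reg lectins and the resistin-like gene *Retnlb* encode secreted antimicrobial proteins of the gut epithelium. RNA-seq values of *Reg1*, *Reg3a*, *Reg3b*, *Reg3g*, *Reg4* and *Retnlb* were taken by gene symbol from each table, 6 genes of 48440. All 6 passed the filter for testing, an FPKM averaging 1 or more over the libraries (FPKM is fragments scaled for transcript length and library size). Small intestinal adenomas were profiled in 6 libraries. All mice carried the *Apc*Min allele, which gives rise to intestinal adenomas, and the Rosa26 iDTA/WT allele, from which diphtheria toxin A is made only after Cre has acted. Libraries QC3, QC8 and QC10 (*Apc*Min, PCdel, n = 3) came from mice that also carried Defa4-Cre, a knock-in that expresses Cre in the Paneth cell (PC) lineage, so that these cells die. Libraries QC4, QC5 and QC6 (*Apc*Min, WT, n = 3) came from mice without Cre, so WT means an intact PC lineage on the same *Apc*Min background. The strain was C57BL/6, to which the Cre allele, made in 129/svJ embryonic stem cells, was backcrossed, the mice were of both sexes, and their age was above 42 days. The labels do not say whether each library is a separate mouse or how many adenomas it holds, so p-values here measure the spread between these libraries.

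Reg proteins are small C-type lectins. Reg3g binds peptidoglycan and kills Gram-positive bacteria, and Reg3b acts mainly on Gram-negative bacteria. Both are induced in enterocytes and PCs when microbes are sensed through Toll-like receptors and MyD88, and when IL-22 from lymphoid cells activates STAT3 in the epithelium. Reg1 is a growth-associated member also made by the exocrine pancreas, Reg4 marks secretory cells including enteroendocrine and deep crypt secretory cells, and Retnlb (RELM-beta) is a goblet cell product induced by the type 2 cytokines IL-4 and IL-13.

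The libraries were of similar depth, between 5.407 and 5.876 gigabases of aligned sequence. General epithelial markers such as *Epcam* (735 to 1001 FPKM) and *Krt8* were abundant in every library. The PC marker list had 9 of 17 genes lower in PCdel adenomas at an unadjusted limma p-value under 0.05 (background 0.681% of the 14240 genes tested) and 6 whose groups did not overlap (background 1.54%), with 0 past adjustment. Summed, it reached 6993 to 17020 FPKM in WT and 4885 to 8223 FPKM in PCdel libraries. *Lyz1*, the PC lysozyme gene, was at 2060 ± 338 FPKM (SD, n = 3) in WT and 1060 ± 101 FPKM (SD, n = 3) in PCdel adenomas. In bulk tissue, fewer cells of a type and less RNA per cell cannot be told apart. WT library QC6 stood apart, with the lowest value of the 6 libraries in 46.1% of genes tested and the highest sum of enterocyte markers. Several results are therefore also given without it. Without QC6, 12 of the 17 PC markers had a log2 fold change below 0 and 5 above, against 16 and 1 with all libraries. The share over all genes tested was not computed without QC6. The PC marker sums in the other WT libraries were 6993 FPKM (QC4) and 10690 FPKM (QC5). Y-linked genes were high in QC6 and QC3, 1 library of each genotype.

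None of the 6 genes differed between the genotypes beyond the spread of the libraries. With limma, 0 of the 6 had an adjusted p under 0.05 (background 0.0140%, 2 of 14240 genes), 0 had an unadjusted p under 0.05 (background 3.38%), and the groups overlapped in all 6 (background of groups that do not overlap 7.54%). *Reg4* alone had an unadjusted p under 0.05 in some of the alternatives, which are given with its values. The mean log2 difference was above 0 in 3 genes, *Reg3b*, *Reg3g* and *Retnlb*, and below 0 in the other 3, where 63.1% of all genes tested were above 0. The median over the 6 was 0.08 on the log2 scale, beside 0.04 over all genes tested. The intervals were wide, so these data do not show that the genes act alike in both genotypes. The data show instead very abundant *Reg3b* and *Reg3g*, and large differences between libraries of the same genotype, with an order of libraries that was not the same in every gene.

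**Figure D1:**
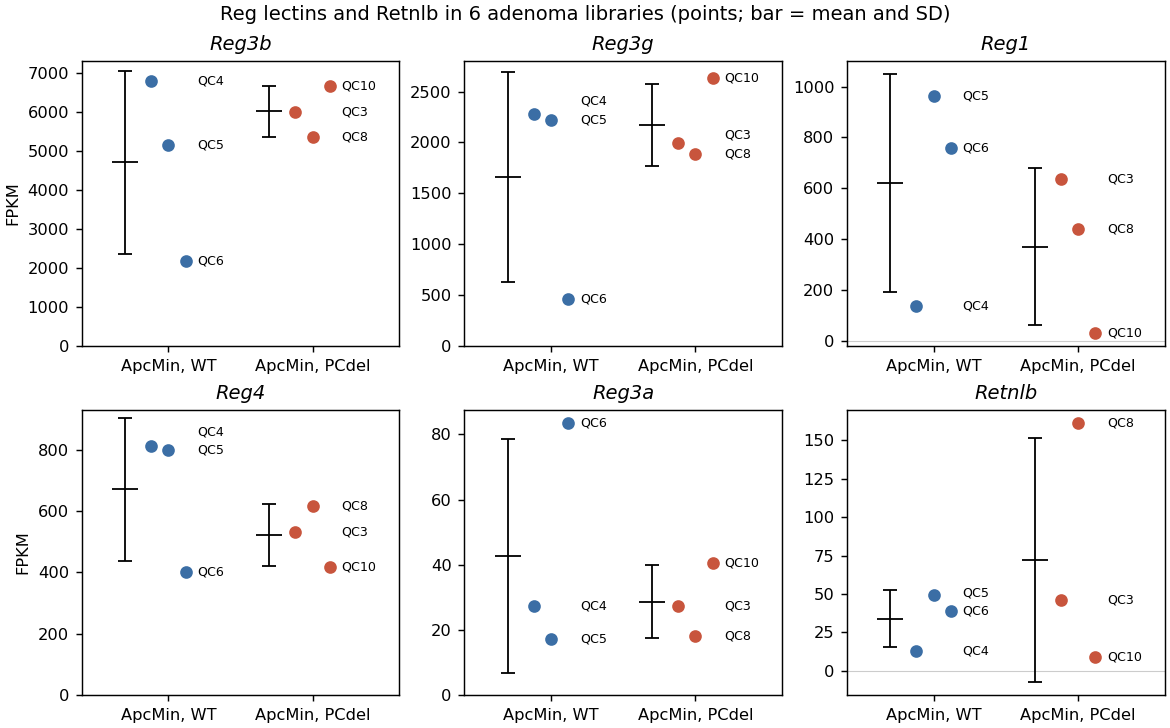
FPKM of each gene (vertical axes, linear, separate scale for each panel) in the 3 *Apc*Min, WT libraries (blue points) and the 3 *Apc*Min, PCdel libraries (red points), labelled by library, with the group mean and SD as black bars. The groups overlap in every panel; QC6 is the lowest library for *Reg3b*, *Reg3g* and *Reg4* and the highest for *Reg3a*, and QC10 is the lowest for *Reg1* and *Retnlb*.

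*Reg3b* was the most abundant of the 6 genes in every library. It lies on chromosome 6 (78370657 to 78373466, plus strand, in GRCm38). It was expressed at 6792, 5153 and 2164 FPKM in QC4, QC5 and QC6 (all WT) and at 6001, 5351 and 6662 FPKM in QC3, QC8 and QC10 (all PCdel). The 3 PCdel values lie within 1.25-fold of each other and inside the WT range, which spans 3.14-fold because QC6 is low. The means were 4703 ± 2347 FPKM (SD, n = 3) in WT and 6005 ± 656 FPKM (SD, n = 3) in PCdel adenomas, a log2 fold change of 0.50 ± 0.42 (SE) on the FPKM + 1 scale (95% interval -0.50 to 1.5, limma adjusted p = 1.0). Among all genes of a library, *Reg3b* ranked between 4 and 8 by FPKM in 5 libraries and 23 in QC6. It took between 0.884% and 1.19% of the summed FPKM in those 5 libraries and 0.358% in QC6. Without QC6 its log2 fold change was 0.02. QC6 was also lowest in the summed epithelial markers, at 6311 FPKM against 6908 to 8772 FPKM in the other 5 libraries. With all libraries centred on these markers, the *Reg3b* log2 fold change was 0.47. The part of the markers in the low QC6 value was not tested.

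*Reg3g*, its close relative, lies on the opposite strand of the same cluster (78466269 to 78468872, minus strand). It was expressed at 2284, 2220.4 and 465 FPKM in QC4, QC5 and QC6 and at 1993, 1890.0 and 2633 FPKM in QC3, QC8 and QC10. QC6 is again far below the other 5 libraries, which lie close together, and QC10 is the highest. The means were 1657 ± 1032 FPKM (SD, n = 3) in WT and 2172 ± 403 FPKM (SD, n = 3) in PCdel adenomas (log2 fold change 0.69 ± 0.61 SE, 95% interval -0.77 to 2.15, limma adjusted p = 1.0). Without QC6 this difference turned to -0.07. *Reg3g* ranked between 17 and 24 in 5 libraries and 185 in QC6.

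The ratio of *Reg3g* to *Reg3b* within a library does not depend on how libraries are scaled. *Reg3g* stood at 33.6%, 43.1% and 21.5% of *Reg3b* in QC4, QC5 and QC6 and at 33.2%, 35.3% and 39.5% in QC3, QC8 and QC10. In QC6 *Reg3g* was thus lower in proportion than *Reg3b*, while in the other libraries the ratio stayed between 33.2% and 43.1%. The mean log2 ratio was -1.67 in WT and -1.48 in PCdel adenomas, a difference of 0.19 (exact two-sided permutation test, p = 0.8, adjusted p = 0.9 over 3 ratios). With 3 libraries against 3, the smallest p this test can give is 0.1.

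The promoters of *Reg3b* and *Reg3g* are shown because both genes were lowest in QC6, the library with the lowest value in 46.1% of genes tested. Over the other libraries their orders differed, with *Reg3b* highest in QC4 and *Reg3g* highest in QC10. Each run is the 250 bases directly before the transcription start in RefSeq (GRCm38.p6). The runs are chr6:78370635-78370884 on the plus strand for *Reg3b* and chr6:78468875-78469124 on the minus strand for *Reg3g*. The *Reg3b* run lies mostly inside the gene entry used for FPKM, which begins at 78370657. The *Reg1* run (78425733 to 78425982) lies wholly inside its entry, which begins at 78422711. Capitals mark the letters TTCNNNGAA, the palindromic STAT consensus, and TATAAA, the TATA box, on either strand.
Reg3b: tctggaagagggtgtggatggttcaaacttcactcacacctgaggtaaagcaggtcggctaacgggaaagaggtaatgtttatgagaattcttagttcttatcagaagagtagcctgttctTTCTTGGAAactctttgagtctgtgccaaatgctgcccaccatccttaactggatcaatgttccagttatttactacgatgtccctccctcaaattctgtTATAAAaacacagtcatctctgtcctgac
Reg3g: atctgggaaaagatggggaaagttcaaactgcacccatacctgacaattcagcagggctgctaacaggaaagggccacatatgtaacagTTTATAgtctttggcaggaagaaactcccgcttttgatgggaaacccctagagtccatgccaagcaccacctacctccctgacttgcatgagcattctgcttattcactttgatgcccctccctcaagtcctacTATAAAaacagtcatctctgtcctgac
The 2 promoters were identical in 68.4% of aligned positions, beside 43.8% to 51% for the other pairs of Reg promoters, and share their last 20 bases before the start, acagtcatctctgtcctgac. With the last base before the start counted as -1, TATAAA lies at -29 to -24 in *Reg3b* and at -27 to -22 in *Reg3g*, and *Reg1* has it at -30 to -25. In *Reg3g* a further match, on the other strand, lies at -161 to -156. TTCNNNGAA was found in *Reg3b* alone of the 5 promoters searched (*Reg1*, *Reg3a*, *Reg3b*, *Reg3g* and *Reg4*), at -129 to -121. Of 32851 promoters of this length, 7.02% hold TTCNNNGAA and 12.4% hold TATAAA. A match is a description of letters and not a measured binding site.

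The coding sequences of *Reg3b* and *Reg3g* are identical at 76.0% of aligned bases, and those of *Reg3a* at 73.9% with *Reg3b* and 73.2% with *Reg3g*. *Reg1* and *Reg4* are further away (at most 60.0% with any of these), and *Retnlb* belongs to another family. Few stretches are shared exactly, which bears on how well reads are told apart. Of the runs of 31 bases in its transcripts, *Reg3b* shares 0.446% with another gene, *Reg3g* 0.231% and *Reg1* 5.70% (mostly with *Gm15912*), and *Reg3a*, *Reg4* and *Retnlb* share 0%.

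*Reg3a* (chromosome 6, 78380709 to 78383827) sits between *Reg3b* and *Reg3g* but followed another order. It was expressed at 27.2, 17.2 and 83.6 FPKM in QC4, QC5 and QC6 and at 27.4, 18.1 and 40.5 FPKM in QC3, QC8 and QC10. The library lowest for *Reg3b* and *Reg3g*, QC6, was the highest for *Reg3a*. Its means were 42.7 ± 35.8 FPKM (SD, n = 3) in WT and 28.7 ± 11.3 FPKM (SD, n = 3) in PCdel adenomas (log2 fold change -0.32 ± 0.57 SE, 95% interval -1.69 to 1.06, limma adjusted p = 1.0), and the difference turned to 0.32 without QC6. As a share of *Reg3b*, *Reg3a* was at 3.86% in QC6 and between 0.334% and 0.608% in the other 5 libraries (log2 difference of the ratio between genotypes -0.82, exact two-sided permutation test, p = 0.9, adjusted p = 0.9). The sum of the enterocyte markers was likewise highest in QC6 and next in QC10. The 14 genes, all tested, summed to 31560 FPKM in QC6 and to 13350 and 13770 FPKM in the other WT libraries. In PCdel libraries they summed to between 12430 and 18920 FPKM. Single markers differed from the sum, as *Alpi* and *Mgam* were highest in QC6 (539 and 255 FPKM) but lowest in QC10 (194 and 183 FPKM). The part of these markers in the *Reg3a* values of single libraries was not tested. With the enterocyte marker score as a covariate, an alternative chosen after seeing the data, the *Reg3a* difference was 0.05. The same covariate gave 0.25 for *Reg3b* and 0.31 for *Reg3g*, and left *Reg1* at -1.12 and *Retnlb* at 0.45, with 0 of the 6 genes past adjustment.

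*Reg1* (chromosome 6, 78422711 to 78428667) had the widest range of the 6 genes. It was expressed at 140.0, 962 and 759.6 FPKM in QC4, QC5 and QC6 and at 636, 441 and 32.3 FPKM in QC3, QC8 and QC10. The highest library, QC5, was 29.8-fold above the lowest, QC10, and each genotype had a single low library, QC4 in WT and QC10 in PCdel. The means were 621 ± 428 FPKM (SD, n = 3) in WT and 369.8 ± 308 FPKM (SD, n = 3) in PCdel adenomas (log2 fold change -1.15 ± 1.24 SE, limma adjusted p = 1.0). The 95% interval, -4.12 to 1.81, reaches from 17.4-fold lower to 3.52-fold higher in PCdel adenomas. The difference turned to 0.18 without QC10, was -0.14 ± 1.49 (SE) with the distal marker score as a covariate, also chosen after seeing the data, and without QC4 every PCdel library was below the other 2 WT libraries (log2 fold change -2.02). *Reg1* stood at 2.06%, 18.7% and 35.1% of *Reg3b* in QC4, QC5 and QC6 and at 10.6%, 8.24% and 0.485% in QC3, QC8 and QC10 (log2 difference -1.67, exact two-sided permutation test, p = 0.5, adjusted p = 0.9).

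Because *Reg1* and the Reg3 genes are also pancreatic products, exocrine pancreas markers were examined. Of 17 such genes, 8 were listed at 0 in all 6 libraries, among them *Cpa1*, *Cela2a*, *Prss2*, *Pnlip* and *Amy2a5*, the carboxypeptidase, elastase, trypsin, lipase and amylase that define acinar cells. Only *Cela1*, *Pnliprp1* and *Zg16*, which is also a goblet cell gene, were high enough to be tested. Summed without *Zg16*, the list reached 55.4 to 105 FPKM in WT and 83.2 to 113 FPKM in PCdel libraries. The other Reg genes of the 98.2 kb cluster were near 0, *Reg2* at 0 in 5 libraries and 0.38 FPKM in QC5, and *Reg3d* at no more than 0.23 FPKM.

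*Reg4* (chromosome 3, 98222156 to 98236748, plus strand) was the steadiest of the 6 genes. It was expressed at 811, 801 and 402 FPKM in QC4, QC5 and QC6 and at 530.1, 618 and 416 FPKM in QC3, QC8 and QC10. The 3 PCdel libraries lay between QC6 and the other 2 WT libraries. The means were 671 ± 233 FPKM (SD, n = 3) in WT and 521 ± 101 FPKM (SD, n = 3) in PCdel adenomas (log2 fold change -0.31 ± 0.31 SE, 95% interval -1.05 to 0.42, limma adjusted p = 1.0). Without QC6 every PCdel library was below both WT libraries, with a log2 fold change of -0.65 (limma unadjusted p = 0.0151, adjusted p = 0.843). It was -0.54 with array quality weights (limma unadjusted p = 0.025, adjusted p = 0.521). It was -0.51 with the enterocyte marker score as a covariate (limma unadjusted p = 0.0085, adjusted p = 0.872). *Spdef*, a goblet cell transcription factor gene, was likewise highest in QC4 and QC5 (29.3 and 31.5 FPKM) and lowest in QC6 and QC10 (19.1 and 19.4 FPKM). *Muc2*, the main secreted mucin gene, was highest in QC5 (600.3 FPKM) and lowest in QC10 (147 FPKM). Not all goblet cell markers followed this order. *Zg16* and *Tff3* were highest in QC10 (3906 and 2043 FPKM), where *Reg4* was low, and *Clca1* was highest in QC8 (703 FPKM). Of the 10 goblet cell markers, all tested, 0 had an unadjusted p under 0.05, and their sum was 8319 to 10450.0 FPKM in WT and 8694 to 10050.0 FPKM in PCdel libraries. Without QC6, 8 of the 10 goblet cell markers had a log2 fold change below 0. In 4 every PCdel library was below both WT libraries, as in 4 of the 12 general epithelial markers. The share over all genes tested was not computed without QC6, so these counts have no background. Groups also separate more easily when only QC4 and QC5 remain in WT. The part of these markers in the *Reg4* values was not tested. The enteroendocrine markers summed to 111.4 to 233 FPKM in WT and 132.0 to 199.1 FPKM in PCdel libraries, with *Chga* highest in QC6, where *Reg4* was lowest.

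*Retnlb* (chromosome 16, 48816856 to 48818891, plus strand) had the largest ratio of group means and it rested on a single library. It was expressed at 13.2, 49.3 and 39.2 FPKM in QC4, QC5 and QC6 and at 46.0, 161 and 9.01 FPKM in QC3, QC8 and QC10. QC8 and QC10, both PCdel, were the highest and the lowest of the 6 libraries and differed by 17.9-fold. The PCdel mean was 213% of the WT mean, at 72.1 ± 79.4 FPKM (SD, n = 3) against 33.9 ± 18.6 FPKM (SD, n = 3). On the log2 scale the difference was 0.47 ± 1.003 (SE, 95% interval -1.93 to 2.87, limma adjusted p = 1.0), and it turned to -0.50 without QC8. The summed distal small intestine markers were highest in QC8 (2245 FPKM) and next in QC10 (1490 FPKM), the highest and the lowest library for *Retnlb*. *Fabp6*, the ileal bile acid binding protein, was at 1477 FPKM in QC8, but also at 630.2 FPKM in QC10, where *Retnlb* was lowest, and between 2.39 and 23.6 FPKM in the other 4 libraries. The 6 distal markers summed to 527 to 646 FPKM in WT and 564 to 2245 FPKM in PCdel libraries, and none was listed at 0. With the distal marker score as a covariate, chosen after seeing the data, the *Retnlb* difference was 0.42 ± 1.33 (SE). The part of these markers in the *Retnlb* values of single libraries was not tested.

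**Figure D2:**
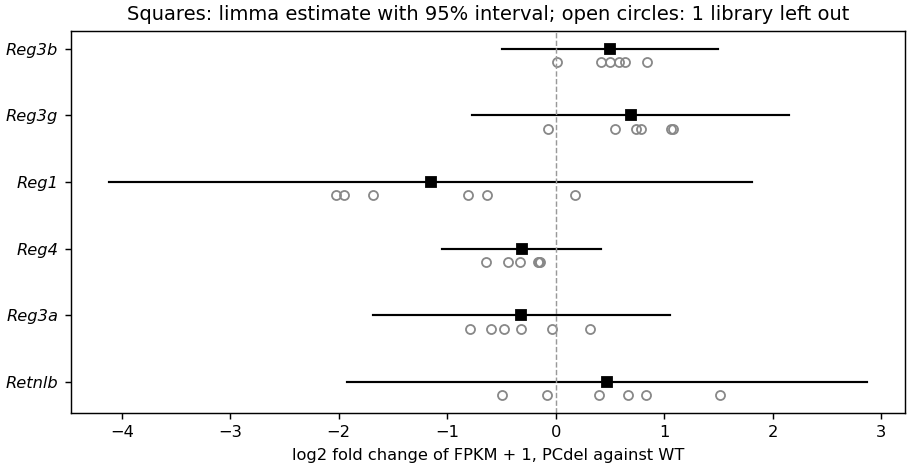
Log2 fold change of FPKM + 1 between *Apc*Min, PCdel and *Apc*Min, WT adenomas (horizontal axis) for each gene, as the limma estimate with its 95% interval (squares and lines) and as the 6 estimates with a single library left out (open circles). All 6 intervals include 0; the circles of *Reg1*, *Reg3a*, *Reg3g* and *Retnlb* lie on both sides of 0.

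Single genes were also compared by the exact two-sided permutation test, which gave p = 0.5 for *Reg1* and *Reg3b*, p = 0.6 for *Reg4*, p = 0.7 for *Reg3g* and p = 0.9 for *Reg3a* and *Retnlb*. Counting error was small beside these differences, since the shallowest of the 36 values, *Retnlb* in QC10, rests on a mean coverage of 52.9 reads per base and *Reg3b* on at least 5583.

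In FPKM, which is scaled for transcript length, *Reg3b* exceeded *Reg3g* in 6 of 6 libraries, by 2.32-fold to 4.65-fold. *Reg3g* exceeded *Reg4* in 6 of 6, by 1.16-fold to 6.33-fold. By mean coverage per base, *Reg3g* was below *Reg4* in QC6 (966 against 2286) and close to it in QC4 (4771 against 4633) and QC5 (4576 against 4517). The order and the ratios of these genes thus depend on the measure. *Reg4* and *Reg1* did not keep an order, *Reg4* being higher in 3 of 6 libraries. *Retnlb* and *Reg3a* were lowest and also changed places, with *Retnlb* higher in 3 of 6. *Reg1* was above *Retnlb* in 6 of 6 libraries but above *Reg3a* in 5 of 6, being below it in QC10. Together the 6 genes took 1.76%, 1.58% and 0.647% of the summed FPKM in QC4, QC5 and QC6 and 1.63%, 1.54% and 1.71% in QC3, QC8 and QC10, mostly as *Reg3b* and *Reg3g*.

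The 6 genes were among the more variable genes between libraries of the same genotype. The pooled SD of log2(FPKM + 1) within genotypes was 1.96 for *Reg1*, higher than in 99.8% of genes tested. It was 1.58 for *Retnlb* (99.6%), 0.95 for *Reg3g* (98.4%), 0.90 for *Reg3a* (98.2%), 0.62 for *Reg3b* (95.7%) and 0.46 for *Reg4* (91.6%), where the median gene had 0.17. For *Reg1* and *Retnlb* the SD was larger among PCdel libraries (2.32 and 2.01) than among WT libraries (1.51 and 0.97). For *Reg3b*, *Reg3g*, *Reg3a* and *Reg4* it was larger among WT libraries, for *Reg3g* 1.31 against 0.26, with QC6 as the outlying value. These SDs were not tested against each other, since each rests on 3 libraries.

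**Figure D3:**
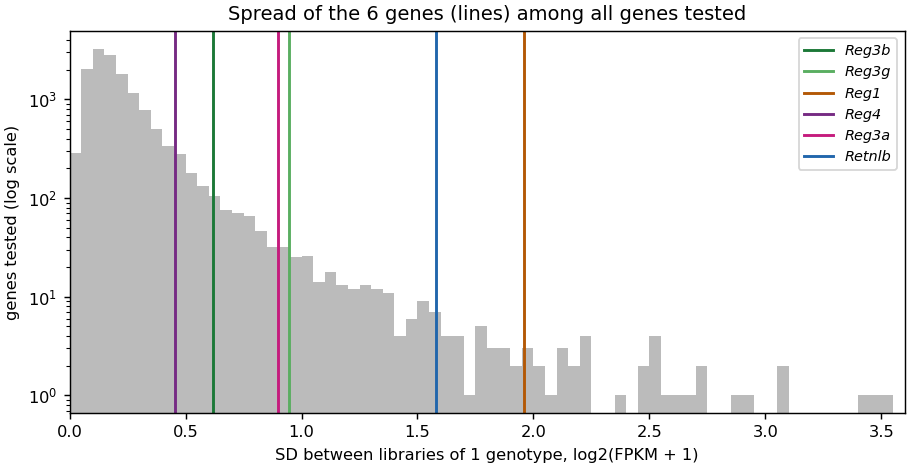
Number of genes tested (vertical axis, log scale) by the SD of log2(FPKM + 1) between libraries of the same genotype (horizontal axis), pooled over both genotypes, with the 6 genes as coloured lines. All 6 lines lie right of the bulk of the genes, from 0.46 for *Reg4* to 1.96 for *Reg1*, against a median of 0.17.

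The profiles of the 6 genes over the libraries were compared pair by pair. Likeness was measured as the root mean square (RMS) difference between log2(FPKM + 1) values after the mean of each gene was subtracted, so that 0 means the same profile. Against a flat line the RMS was 1.70 for *Reg1*, 1.31 for *Retnlb*, 0.85 for *Reg3g*, 0.75 for *Reg3a*, 0.56 for *Reg3b* and 0.40 for *Reg4*, and a difference of about this size or more means little likeness. The RMS difference between *Reg3b* and *Reg3g* was 0.32, below that of either gene from a flat line. Both had a low value in QC6, and over the other libraries their orders differed. The difference between *Reg3b* and *Reg4*, 0.52, was larger than that of *Reg4* from a flat line. *Reg1* and *Retnlb* differed by 1.13, less than *Reg1* from any of the other 4 (1.65 to 2.22), and shared their pair of lowest libraries, QC4 and QC10. *Reg3a* was at 1.10 from *Reg4*, the nearest of the other 5, and at 1.21 from *Reg3b*, both larger than its RMS from a flat line. Outside the Reg and resistin families, the 3 genes closest to *Reg3b* were *Srprb* (RMS difference 0.14), *T* (0.18), which encodes brachyury, and *Itgam* (0.18). Those closest to *Reg3g* were *Ccdc71* (0.18), *Lsm12* (0.24) and *Dedd2* (0.30), all 3 with their lowest value in QC6, at 2.41, 5.29 and 4.51 FPKM. The closest to *Reg4* were *Creb3l1* (0.09), *Pear1* (0.105) and *Shf* (0.105). *Reg3a* was closest to *Acot12* (0.15), *Cyp3a25* (0.16) and *Cyp4v3* (0.17).

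The genes closest to *Retnlb* were 3 members of the gasdermin C family, *Gsdmc2* (RMS difference 0.44), *Gsdmc4* (0.53) and *Gsdmcl2* (0.55). *Gsdmc2* was at 32.7, 100.4 and 173 FPKM in QC4, QC5 and QC6 and at 82.7, 279 and 21.1 FPKM in QC3, QC8 and QC10. Its highest and lowest libraries, QC8 and QC10, are those of *Retnlb*, and its genotypes overlapped (log2 fold change -0.07, limma adjusted p = 1.0). The genes closest to *Reg1* were *Sult6b2* (0.68), *Gm9994* (0.81) and *Chil4* (0.91), a chitinase-like gene. *Sult6b2*, a sulfotransferase gene, was at 18.3, 83.3 and 249 FPKM in QC4, QC5 and QC6 and at 156, 139 and 5.98 FPKM in QC3, QC8 and QC10. With 14233 genes to choose from and 6 libraries, some genes come close to any profile.

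**Figure D4:**
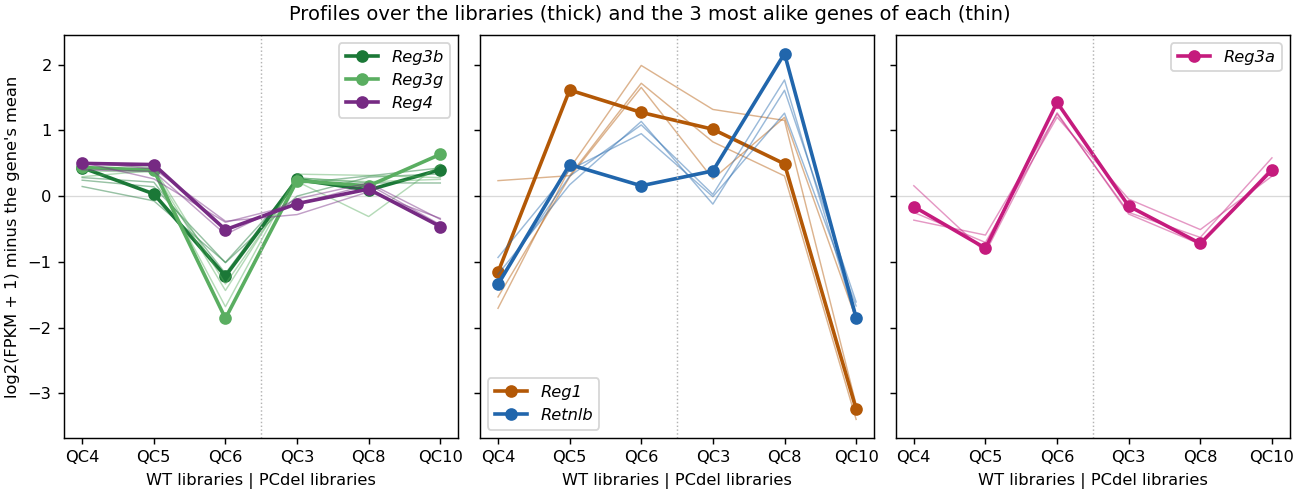
Log2(FPKM + 1) minus the mean of each gene (vertical axis) in each library, WT left and PCdel right (horizontal axis, split by the dotted line), for the 6 genes (thick lines) and the 3 genes most alike to each (thin lines, same colour). *Reg3b* and *Reg3g* dip in QC6, *Reg1* and *Retnlb* dip in QC4 and QC10, and *Reg3a* peaks in QC6.

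The pathways that induce these genes were read from fixed lists. Of the 9 cytokine genes of the IL-22 and related pathways, *Il22* itself was listed at 0 in all 6 libraries, and *Il17a*, *Il17f*, *Il23a*, *Il12b* and *Osm* each stayed below 1 FPKM in every library. *Il6* was below 1 FPKM in 5 libraries and at 2.74 FPKM in QC8. *Il11*, a gp130 cytokine gene, was at 4.44, 4.51 and 5.77 FPKM in QC4, QC5 and QC6 and at 11.6, 16.1 and 5.002 FPKM in QC3, QC8 and QC10. The groups overlapped, with a log2 fold change of 0.89 ± 0.37 (SE, limma unadjusted p = 0.0468, adjusted p = 1.0). *Il1b* was at 4.34 ± 1.79 FPKM (SD, n = 3) in WT and 7.33 ± 2.76 FPKM (SD, n = 3) in PCdel adenomas, without passing the test. These 2 were the only genes of the list tested.

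Of the 11 receptor genes listed for these cytokines, 8 were high enough to be tested. *Il23r* and *Il22ra2* were below 1 FPKM in every library, and *Il6ra* averaged 0.60 FPKM in WT and 1.33 FPKM in PCdel libraries. The IL-17 receptor gene *Il17ra* was at 2.59 ± 0.25 FPKM (SD, n = 3) in WT and 2.33 ± 0.32 FPKM (SD, n = 3) in PCdel adenomas. *Il10rb*, which encodes a subunit shared by the IL-10 and IL-22 receptors, was at 63.7 ± 8.29 FPKM (SD, n = 3) in WT and 60.8 ± 6.68 FPKM (SD, n = 3) in PCdel adenomas. *Il22ra1*, for the subunit that binds IL-22, was at 24.2 ± 3.65 and 28.1 ± 4.57 FPKM (SD, n = 3), and *Il17rc*, an IL-17 receptor gene, at 52.0 ± 6.63 and 57.5 ± 21.9 FPKM (SD, n = 3). Of the 8 receptor genes tested, 0 had groups that did not overlap and 1, *Il1r1*, the IL-1 receptor, had an unadjusted p under 0.05 (background of genes higher in PCdel 2.70%). Of the 10 signalling genes tested, *Cebpd*, a transcription factor gene, had groups that did not overlap (5.68 ± 0.34 FPKM in WT and 7.03 ± 0.38 FPKM in PCdel adenomas, SD, n = 3, background of genes higher without overlap 6.00%). Its log2 fold change was 0.27 ± 0.10 (SE, limma adjusted p = 1.0). *Stat3* was at 43.8 ± 3.24 FPKM (SD, n = 3) in WT and 53.1 ± 8.31 FPKM (SD, n = 3) in PCdel adenomas, and *Socs3*, its feedback inhibitor, at 17.9 ± 3.01 and 21.4 ± 1.79 FPKM (SD, n = 3), and neither passed the test.

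Of the microbial sensors and their adaptors, all 13 genes tested had a log2 fold change above 0, and 12 of 13 without QC6 (background with all libraries 63.1%). Their median was 0.19 beside 0.04 over all genes tested. The groups did not overlap in 4 of the 13, all higher in PCdel adenomas, also without QC6 (background with all libraries 6.00%), and 3 had an unadjusted p under 0.05 (background 2.70%), but 0 passed adjustment with limma. These 4 were *Nfkbiz*, an NF-kappa-B cofactor gene, *Cd14*, the lipopolysaccharide co-receptor gene, and the Toll-like receptor genes *Tlr1* and *Tlr2*. *Nfkbiz* was at 8.72, 4.68 and 6.89 FPKM in QC4, QC5 and QC6 and at 12.5, 11.04 and 10.2 FPKM in QC3, QC8 and QC10 (log2 fold change 0.69 ± 0.20 SE, limma adjusted p = 1.0). *Cd14* was at 11.04 ± 3.23 FPKM (SD, n = 3) in WT and 15.2 ± 0.81 FPKM (SD, n = 3) in PCdel adenomas. *Myd88*, the adaptor of most Toll-like receptors, was at 17.8 ± 2.01 and 18.3 ± 0.93 FPKM (SD, n = 3). Leukocyte and stromal markers moved the same way. All 11 leukocyte markers tested had a log2 fold change above 0 (8 of 11 without QC6), summing to 50.9 to 74.9 FPKM in WT and 59.7 to 79.6 FPKM in PCdel libraries, and so had all 11 stromal markers (8 of 11 without QC6), summing to 426 to 551 FPKM and 484.5 to 689 FPKM. No gene of these 2 lists was at 0 throughout, and their part in the sensor genes was not tested.

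The type 2 pathway list, whose cytokines induce *Retnlb*, had 6 of 13 genes high enough to test. *Il1rl1*, the IL-33 receptor gene, was at 33.7, 26.7 and 26.8 FPKM in QC4, QC5 and QC6 and at 59.8, 60.0 and 43.8 FPKM in QC3, QC8 and QC10. Every PCdel library was above every WT library, in this gene alone of the 6 tested (background of genes higher without overlap 6.00%). Its log2 fold change was 0.88 ± 0.16 (SE, limma unadjusted p = 0.00126, adjusted p = 0.979). The background of genes higher at an unadjusted p under 0.05 was 2.70%. The order of libraries differed from that of *Retnlb*, since QC10 had the lowest *Retnlb* and a higher *Il1rl1* than any WT library. *Il33* was at 72.7 ± 31.4 FPKM (SD, n = 3) in WT and 66.4 ± 13.4 FPKM (SD, n = 3) in PCdel adenomas. The ligand genes *Il4*, *Il5*, *Il13* and *Il25* were each below 1 FPKM in every library. *Stat6*, the transducer of IL-4 and IL-13, was at 37.8 ± 1.32 and 39.0 ± 1.55 FPKM (SD, n = 3).

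Of the relatives of *Retnlb*, *Retn* was listed at 0 in all 6 libraries and *Retnla* in 5. *Retnlg*, a resistin-like gene known from neutrophils and marrow, was the only relative tested. It was at 5.13, 4.13 and 4.39 FPKM in QC4, QC5 and QC6 and at 7.18, 9.40 and 7.19 FPKM in QC3, QC8 and QC10. The groups did not overlap (background of genes higher without overlap 6.00%). The log2 fold change was 0.68 ± 0.14 (SE, limma unadjusted p = 0.00188, adjusted p = 0.979), where 2.70% of all genes tested were higher at an unadjusted p under 0.05. The neutrophil gene *S100a8* had overlapping groups, being at 5.87, 1.05 and 0.98 FPKM in the WT libraries and at 2.95, 4.75 and 0.76 FPKM in the PCdel libraries.

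Of 28 other epithelial antimicrobial and microbe-responsive genes, 23 were tested. The groups did not overlap in 1, a share not above the background of 6.00% for genes higher in PCdel adenomas. This was *Nos2*, the inducible nitric oxide synthase gene (0.82 ± 0.58 FPKM in WT and 8.44 ± 4.55 FPKM in PCdel adenomas, SD, n = 3, log2 fold change 2.28 ± 0.45 SE, limma adjusted p = 0.979). *Itln1*, an intelectin gene of PCs and goblet cells, had a log2 fold change of -0.62 and overlapping groups (limma unadjusted p = 0.0417, adjusted p = 1.0). The median log2 fold change of the 23 was 0.15. *Sprr2a2*, the highest of these in FPKM, was at 5734 ± 1130.0 FPKM (SD, n = 3) in WT and 5809 ± 1081 FPKM (SD, n = 3) in PCdel adenomas. How far its reads are told apart from those of the other *Sprr2a* genes of the list was not checked. *Lypd8*, which keeps flagellated bacteria from the epithelium, was at 2481 ± 522 and 2840.0 ± 647 FPKM (SD, n = 3).

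**Figure D5:**
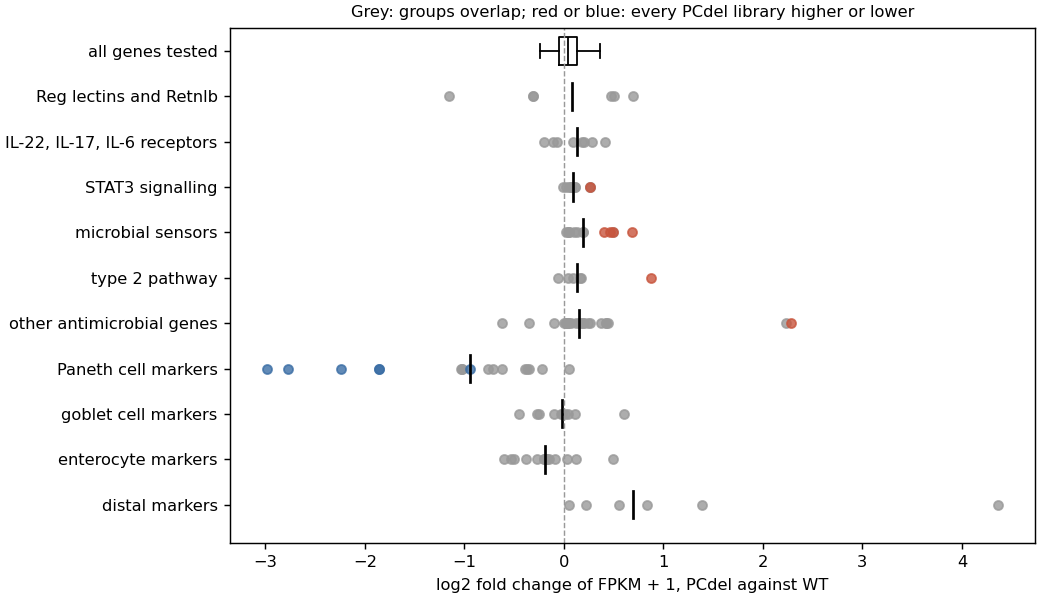
Log2 fold change of FPKM + 1 between *Apc*Min, PCdel and *Apc*Min, WT adenomas (horizontal axis) for the tested genes of each list (points, with the list's median as a black line) and for all 14240 genes tested (box with median and quartiles, whiskers at the 5th and 95th percentiles). The 6 Reg and *Retnlb* points are all grey (overlapping groups) and spread from -1.15 to 0.69; 4 of 13 microbial sensors are red (every PCdel library higher).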

How the data were processed

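RNA of 6 small intestinal adenoma samples was made into libraries with the TruSeq RNA kit and sequenced on an Illumina HiSeq. The authors name CLC Genomics Workbench for alignment and a normalization in MatLab, whose settings are not given in the sources used here, nor is the program or annotation behind the tables. The authors deposited for each gene the FPKM, scaled for length and library size, the TPM, scaled to a fixed sum, and the read coverage per base, which is not scaled. Gene positions were those of GRCm38 (87.7% of shared gene IDs at the same position in GENCODE M21). Values of entries with the same gene ID were summed. Coverage was used for depth and for the order of *Reg3g* and *Reg4* within a library.

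Genotypes were compared with limma 3.58.1 in R 4.3.3 (lmFit, eBayes with trend) on log2(FPKM + 1) for the 14240 genes whose FPKM averaged 1 or more over the libraries. The p-values were adjusted by Benjamini-Hochberg over all of these and called under 0.05. A fold change on this scale understates the change of low genes. Named were the 6 genes, list genes that passed the threshold or whose groups did not overlap (otherwise the 2 most abundant of a list), defining cell type markers, and the 3 genes most alike in profile to each of the 6. *Il1r1*, *Il22ra1*, *Il17ra*, *Stat3*, *Socs3*, *Myd88*, *Il33*, *Stat6*, *S100a8*, *Itln1*, *Sprr2a2* and *Lypd8* were named outside that rule, after their values were seen. So were the low cytokine and receptor genes. The fit was tested on simulated data. Sequences come from RefSeq GRCm38.p6 (promoters, 5 of 6 genes matched) and GENCODE M21 transcripts, aligned with Biopython 1.88. The 6 genes and the lists were chosen with earlier results of these data known. The alternatives tried were other pseudocounts, filters, normalizations, TPM, weights, covariates and each library left out.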

Additional observations from a re-analysis of the deposited data

How the results depend on the processing

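The paper used littermate controls, but the labels do not say which libraries share a litter, so no paired analysis was possible. The *Reg3b* and *Reg4* differences kept their direction in all 18 alternatives, and 0 of the 6 genes passed the adjusted threshold in any, while *Reg4* had an unadjusted p under 0.05 in 3 of them (0.0085 to 0.025, limma). When single libraries were left out, the log2 difference ranged from -2.02 to 0.18 for *Reg1*, from -0.79 to 0.32 for *Reg3a*, from 0.02 to 0.84 for *Reg3b*, from -0.07 to 1.08 for *Reg3g*, from -0.65 to -0.14 for *Reg4* and from -0.50 to 1.51 for *Retnlb*. Direction turned without QC6 (*Reg3a* 0.32, *Reg3g* -0.068), without QC10 (*Reg1* 0.18), without QC4 (*Retnlb* -0.08) and without QC8 (*Retnlb* -0.50). It also turned with array quality weights (*Reg3a* 0.25, *Reg3g* -0.00085) and, for *Reg3a*, with the distal (0.014) or enterocyte (0.052) marker score as a covariate, both added after seeing the data. The enterocyte score moved *Reg3b* to 0.25, *Reg3g* to 0.31 and *Reg4* to -0.51, and the distal score *Reg1* to -0.14, *Reg3b* to 0.33, *Reg3g* to 0.33 and *Reg4* to -0.44. The ratios to *Reg3b* differed between genotypes by -2.88 to -0.24 (*Reg1*), -1.45 to 0.31 (*Reg3a*, reversed without QC6, 0.31) and -0.08 to 0.42 (*Reg3g*, reversed without QC6, -0.084) on the log2 scale with a library left out.

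The number of the 6 genes whose groups did not overlap was 0 with all libraries (background 7.54%). It was 0 to 2 with a library left out, namely *Reg1* and *Reg3b* without QC4 and *Reg4* without QC6. The share over all genes tested was not computed with a library left out, where groups separate more easily. Of all genes, 2 passed the adjusted threshold, 1 without the filter, with median centring or with the distal score, and 1 to 5 with a library left out. At an unadjusted p under 0.05 there were 481, against 976 with no filter on low values, 260 when FPKM had to average 5, 281 with epithelial marker centring, 1270 with array quality weights, and 358 to 820 with a library left out. The cause was not tested. With 3 libraries against 3 the exact test cannot go below 0.1, a floor that limma does not have.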

Other observations

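The following genes were chosen after their values were seen. *Ang4*, an antimicrobial angiogenin of PCs and goblet cells, was at 153, 381 and 1108 FPKM in QC4, QC5 and QC6 (all WT) and at 425, 1173 and 62.3 FPKM in QC3, QC8 and QC10 (all PCdel). As for *Retnlb*, QC8 was the highest library and QC10 the lowest. *Clca1*, a goblet cell gene, was also highest in QC8, at 703 FPKM, but at 192 FPKM in QC10 it was above QC4 (136 FPKM). The genotypes overlapped in both genes. *Saa1*, an acute-phase gene, was at 56.0 FPKM in QC8, and its highest value elsewhere was 4.29 FPKM in QC10.

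Of the chromosome 6 Reg cluster, 4 genes were expressed well above the 2 near 0, and the 4 did not share an order of libraries. *Reg1* was lowest in QC10, which was the highest library for *Reg3g*, and *Reg3a* was highest in QC6, the lowest for *Reg3b* and *Reg3g*.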
